A study of Mus musculus with 5 samples.

Results

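Basement membranes are thin sheets of extracellular matrix, and the 10 genes described here encode core parts of that sheet or proteins bound to it. They are Lama1, Lama5, Lamb1 and Lamc1 (laminin chains), Col4a1 and Col4a2 (type IV collagen chains), Nid1 (nidogen-1), Hspg2 (perlecan), Sparc and Fn1 (fibronectin). Members were taken by gene symbol, not by a measured value, and as transcripts that the annotation types as protein_coding. This gave 10 of 21870 genes with such a transcript and 29 of the 135276 deposited transcripts. The value of a gene is that of its protein_coding transcript with the highest mean level over all libraries.

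Ribosome profiling (RIBO-seq) sequences the mRNA fragments that ribosomes shield from RNase, here called footprints, and the measure is the number of footprints on each transcript. The cells were mouse embryonic stem cells (mESCs), of the 46C line by the study's methods, grown on gelatin in medium with 10% serum and 1000 units/ml of the self-renewal factor LIF. All cells received cycloheximide, an inhibitor of elongation, and RNase I (1.3 U over 45 min) cut the unprotected RNA in every lysate. The study compared 3 libraries of standard RIBO-seq, in which ribosomes were spun through 30% sucrose, with 2 libraries of AHARIBO RIBO-seq, in which ribosomes were pulled down on beads through nascent chains that carried the methionine analogue AHA. The labels give all 5 samples as untreated and as biological replicates, and the dose and time of AHA for these libraries were not stated. A legend of the study places standard RIBO-seq on the input of the capture. The groups thus differ in how ribosomes were collected, no difference in growth or treatment being labelled, and p-values measure the spread between these samples.

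Laminin is a heterotrimer of an alpha, a beta and a gamma chain, and it is the component that starts the sheet on the cell surface. Type IV collagen forms a second network, in which the common molecule holds chains of Col4a1 and Col4a2, while nidogen and perlecan join both networks. Embryonic stem cells and the early embryo make laminin, and the parietal endoderm of the rodent embryo is a classic rich source of laminin and type IV collagen.

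The chains differ in where methionine, and so AHA, can first appear after the initiator. In the Gencode M21 coding sequences (GRCm38), the second methionine lies at residue 11 in Nid1, 35 in Lamc1, 49 in Lamb1, 51 in Sparc, 55 in Lama1, 65 in Col4a1, 81 in Hspg2, 120 in Fn1, 207 in Col4a2 and 279 in Lama5. These positions count from the annotated start codon, and whether ribosomes use that start was not tested. The median over 12235 tested genes with a complete coding sequence was residue 49. All 10 proteins held fewer methionines per 100 residues than the median gene at 2.13, from 0.929 in Fn1 to 1.99 in Sparc, and 9 of 10 were longer than the median of 463 residues (Sparc, with 302, was the exception). The coding sequence is shown for the 4 genes whose 5′ ends are compared further on, as the first 30 nt and as 30 nt around the second methionine codon, with the methionine codon in capitals.
Fn1 start, chr1:71652953-71652982, minus strand: ATGctcaggggtccgggacccgggcggctg
Fn1 second methionine, residue 120, chr1:71650605-71650634, minus strand: cctaaagattccATGatctgggactgtacc
Sparc start, chr11:55409955-55409984, minus strand: ATGagggcctggatcttctttctcctttgc
Sparc second methionine, residue 51, chr11:55406547-55406576, minus strand: gtccaggtggaaATGggagaatttgaggac
Lamb1 start, chr12:31265421-31265450, plus strand: ATGgaagggcccctctcctctctcccaaca
Lamb1 second methionine, residue 49, chr12:31265553-31265582, plus strand: cgaggactggacATGgggctgctccaggtg
Nid1 start, chr13:13437702-13437731, plus strand: ATGctggacgcgagcggctgtagttgggcg
Nid1 second methionine, residue 11, chr13:13437720-13437749, plus strand: tgtagttgggcgATGtggacgtgggcgctg
The Nid1 windows overlap in the genome because its second methionine is so near the start. All 8 windows lie within coding exons.

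After removal of duplicate reads, the libraries held 6403651 to 9110668 counted reads in standard RIBO-seq and 9972892 to 11150527 in AHARIBO RIBO-seq. A count of 3 reads, taken as the smallest that the depth can show, was worth 0.262 to 0.476 CPM (counts scaled to a common library size, so that libraries of different depth can be compared). Every member lay above this floor in every library. Pluripotency genes were abundant. Their 12 markers, led per kb by Dppa5a, Tdgf1 and Pou5f1, summed to 1710 to 1818 CPM in standard RIBO-seq and 1565 to 1685 CPM in AHARIBO RIBO-seq. Markers of primitive and parietal endoderm, cells that also make basement membrane, were near the floor, with 8 of 16 under 1 CPM in every library and 1 at 0 throughout. They summed to 10.9 to 14.9 CPM in standard and 9.71 to 10.3 CPM in AHARIBO RIBO-seq, and the most abundant, Sox7, Sox17 and Amn, each reached at most 3.33 CPM. Markers of fibroblasts or feeder cells summed to 38.3 to 44.1 and 37.8 to 38.1 CPM, with 8 of 16 under 1 CPM and 2 at 0 in every library, and Acta2, Thy1 and Twist1 were the most abundant per kb. The sums were 12.1 to 13.6 and 14.1 to 15.4 CPM for 8 trophoblast markers, led by Krt8, Krt18 and Eomes. They were 16.8 to 20.9 and 15.4 to 16.4 CPM for 8 mesoderm and neural markers, led by Sox1, Pax6 and Neurog2. Fewer cells of a type and less RNA per cell cannot be told apart in such bulk libraries.

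Levels of different genes were compared as CPM per kb of coding sequence, since a longer message carries more footprints at the same density. On this scale the 10 genes spanned a wide range, and the spread between libraries was small beside it. Sparc (53.2 ± 4.34, SD, n = 5 libraries of both methods), Lamc1 (53.2 ± 2.85) and Fn1 (53.0 ± 2.60) formed the top, at about the 91.1 percentile of the 12372 genes tested. Nid1 (23.7 ± 0.714) and Hspg2 (21.8 ± 1.73) followed, then Lama1 (15.2 ± 1.55), Lama5 (12.8 ± 0.96) and Lamb1 (7.997 ± 0.713). Col4a1 (1.88 ± 0.138) and Col4a2 (1.18 ± 0.137) were lowest, at the percentiles 21.5 and 14.0. Neighbours in this order overlapped in range for Sparc and Lamc1, Lamc1 and Fn1, Nid1 and Hspg2, and Lama1 and Lama5. Lama1 was nonetheless above Lama5 within each of the 5 libraries. The remaining 5 neighbouring pairs kept their order in every library, with ranges that did not overlap.

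**Figure D1:**
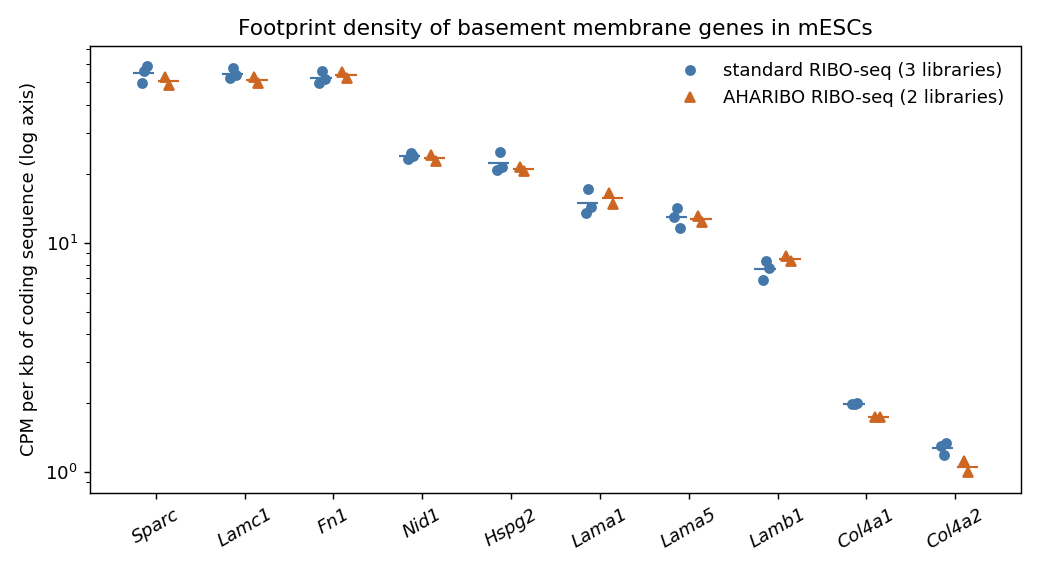
Footprint density of the 10 genes in each library, as CPM per kb of coding sequence on a log axis. Circles are the 3 standard and triangles the 2 AHARIBO RIBO-seq libraries, and short lines are group means. Sparc, Lamc1 and Fn1 lie between 48.7 and 58.8, and Col4a1 and Col4a2 lie below 2.00.

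The laminin alpha chains bind cell receptors through their C-terminal domains, and Lama1 and Lama5 are alternatives for the same place in the trimer. Lama1, the alpha chain of laminin-111, is annotated on chr17:67697259-67822647 (plus strand, 63 exons), and its footprints were 125, 159 and 132 CPM in standard RIBO-seq replicates 1 to 3 and 153 and 136 CPM in AHARIBO RIBO-seq replicates 1 and 2. Lama5, the alpha chain of laminin-511, lies on chr2:180176373-180225859 (minus strand, 79 exons) and gave 144, 158 and 129 CPM in the standard and 146 and 137 CPM in the AHARIBO libraries. For both genes the AHARIBO values fell within the standard range. The Lama1 to Lama5 ratio per kb was 1.19 ± 0.0847 (SD, n = 5), from 1.04 to 1.26, so that footprints on both alpha chains were of similar density.

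Lamb1, the beta chain of these laminins, lies on chr12:31265293-31329644 (plus strand, 33 exons) and gave 37.9, 45.8 and 42.7 CPM in standard and 47.9 and 45.8 CPM in AHARIBO RIBO-seq. Both AHARIBO values lay above the standard ones, the lower of them by a narrow margin, and Lamb1 was the only member with this order. Lamc1, the gamma chain shared by most laminins, lies on chr1:153218922-153332786 (minus strand, 28 exons) and gave 252, 277 and 260 CPM in standard and 256 and 240 CPM in AHARIBO RIBO-seq. These ranges overlapped. Per kb, Lamc1 was 7.58, 6.91 and 6.95 times as dense as Lamb1 in the standard and 6.08 and 5.97 times in the AHARIBO libraries. The ratio was below the standard range in both AHARIBO libraries, and its group means were 7.15 and 6.03. It was given no test of its own. No share of ratios that separate was worked out over all genes, while single levels separated in 34.3% of them. The ratio depends on how a gene is counted: as Lamb1 to Lamc1 it was 0.151 ± 0.0151 by the highest transcript, 0.296 with all protein_coding transcripts of a gene summed and 0.226 per nt of whole transcript.

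Laminin trimers hold the chains in equal numbers, while footprints on them were unequal. Adding the alpha chains Lama1 and Lama5 gave 28.0 ± 2.33 CPM per kb (SD, n = 5), and adding the beta chains Lamb1 and Lamb2, which pair with the same gamma chain, gave 13.5 ± 0.88. Lamc1 alone stood at 53.2 ± 2.85. In every library the order was gamma, then alpha, then beta, with no overlap between the ranges. These sums, and the ratios that involve Nid2, Lamb2 or Lamc1 with Col4a1, were chosen after the levels had been seen. Footprint density reflects the amount of a message and the ribosomes on it, and does not measure protein. The laminin order also rests on counts that took different shares of reads as duplicates, from 6.37% to 10.0% for Lamb1 and from 24.1% to 32.3% for Lamc1.

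Col4a1 and Col4a2 encode the chains of the ubiquitous type IV collagen and lie head to head on chromosome 8. Col4a1 spans chr8:11198423-11312826 on the minus strand (52 exons) and Col4a2 chr8:11312805-11449287 on the plus strand (48 exons), so that the annotated transcripts share 22 nt of genome at their 5′ ends on opposite strands. Col4a1 gave 9.86, 9.93 and 10.0 CPM in standard and 8.66 and 8.69 CPM in AHARIBO RIBO-seq. Col4a2 gave 6.61, 6.07 and 6.82 CPM in standard and 5.69 and 5.09 CPM in AHARIBO RIBO-seq. Both AHARIBO libraries lay below all standard libraries for both chains, at 43 to 99 reads per library and transcript. Col4a1 lost 1.98% to 7.35% and Col4a2 5.8% to 18.9% of its reads as duplicates. The Col4a1 to Col4a2 ratio per kb was 1.6 ± 0.105 (SD, n = 5), from 1.498 to 1.745, and overlapped between methods. Lamc1 was 28.4 ± 1.65 times as dense as Col4a1. The collagen chains Col4a3, Col4a4, Col4a5 and Col4a6, which are found in specialised membranes such as that of the kidney glomerulus, had means of 0.0391 CPM per kb or less, and all 4 were under 1 CPM in every library.

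Nidogen-1 (Nid1, chr13:13437551-13512269, plus strand, 20 exons) links laminin to type IV collagen, and its footprints were steady at 86.3, 91.5 and 89.0 CPM in standard and 90.3 and 85.2 CPM in AHARIBO RIBO-seq. Its relative Nid2 was denser, with a Nid1 to Nid2 ratio of 0.504 ± 0.0178 per kb (SD, n = 5). The ratio was 0.509, 0.481 and 0.491 in standard and 0.525 and 0.515 in AHARIBO RIBO-seq, so that both AHARIBO values lay above the standard ones, and it was not tested. How often ratios separate over all genes was not worked out, and single levels did so in 34.3% of genes. Perlecan (Hspg2, chr4:137468803-137570629, plus strand, 97 exons), a heparan sulphate proteoglycan of 4383 residues, gave 273, 326 and 282 CPM in standard and 282 and 269 CPM in AHARIBO RIBO-seq. For the levels of both Nid1 and Hspg2 the methods overlapped, and for Hspg2 the highest standard library stood apart from the other 4 values.

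Sparc (chr11:55394500-55420080, minus strand, 10 exons) is a small collagen-binding glycoprotein that is also made in quantity by parietal endoderm, and it gave 45.0, 51.2 and 53.5 CPM in standard and 48.0 and 44.2 CPM in AHARIBO RIBO-seq. Fibronectin (Fn1, chr1:71585524-71653175, minus strand, 46 exons) is a matrix glycoprotein that binds integrins and collagen and is found beside basement membranes as well as in other matrix. It carried the most footprints of the 10 genes before division by length, with 369, 416 and 385 CPM in standard and 411 and 390 CPM in AHARIBO RIBO-seq. Both genes overlapped between methods. Together the 10 genes summed to 1347, 1540 and 1390 CPM in the standard and 1447 and 1361 CPM in the AHARIBO libraries, which also overlapped. With all protein_coding transcripts of each gene added up, so that a read on several isoforms counts again, the mean of this sum was 4339 in place of 1417 CPM.

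The comparison of methods asks whether ribosomes captured through the nascent chain sample these messages differently from all pelleted ribosomes. None of the 10 genes differed detectably. With edgeR's quasi-likelihood test and Benjamini-Hochberg adjustment over 66972 transcripts, 0 of 10 members were called at an adjusted p under 0.05, 0 had an unadjusted p under 0.05, and DESeq2 called 0, giving no adjusted p for Col4a1 and Col4a2. The background by edgeR was 3021 transcripts called, or 4.51% of those tested (2.27% with AHARIBO RIBO-seq higher and 2.24% with it lower), and 5.12% of genes by their highest transcript. DESeq2 called 2.05% of the transcripts to which it gave an adjusted p. The background rested on single libraries, with 510 transcripts called without AHARIBO replicate 1, 1173 without standard replicate 1 and 1815 without standard replicate 3, and the members' count was 0 in each case. The log2 fold change, AHARIBO minus standard, was negative for 7 members and positive for 3, with a median of -0.06 beside 0.00 over all genes (-0.00322).

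The largest difference upward was that of Lamb1, at 0.16 (SE 0.0877, adjusted p = 0.34 by edgeR with Benjamini-Hochberg adjustment), and the largest downward were those of Col4a2, at -0.26 (SE 0.173, adjusted p = 0.449), and Col4a1, at -0.19 (SE 0.141, adjusted p = 0.488). The values were 0.06 for Lama1, 0.04 for Fn1, -0.02 for Nid1, -0.03 for Lama5, -0.09 for Lamc1, -0.09 for Hspg2 and -0.11 for Sparc, with SEs of 0.076 to 0.0871 and adjusted p from 0.558 to 0.936 in the same test. The 95% intervals of the 10 members reached from -0.61 (Col4a2) to 0.33 (Lamb1) on the log2 scale, or from 0.657 to 1.26 fold. Each gene's own interval sets the change that remains possible for it, and that of Fn1, the narrowest with an SE of 0.076, ran from -0.11 to 0.19. AHARIBO and standard libraries did not overlap for 3 of 10 members (Lamb1 above, Col4a1 and Col4a2 below), against 34.3% of all genes and 33.8% of all transcripts. Leaving out 1 library turned the sign for Lama1, Lama5, Nid1 or Fn1, all of which had log2 fold changes of 0.06 or less in size, as did scaling by library size alone for Lama5 and Nid1. None of these alternatives made any member pass the threshold.

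**Figure D2:**
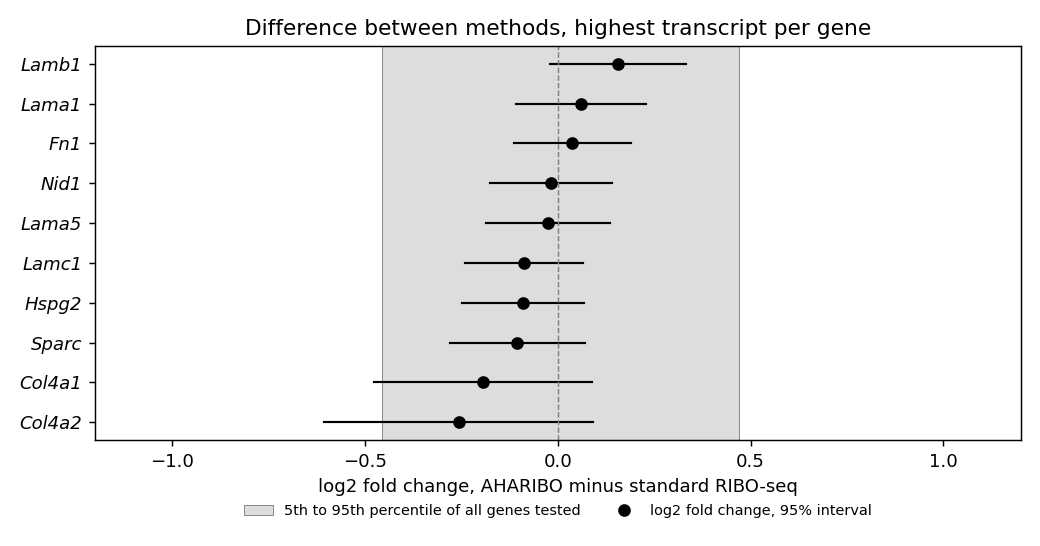
Log2 fold change between methods for the highest transcript of each gene, AHARIBO minus standard RIBO-seq (points), with 95% intervals from edgeR (bars). The grey band runs from the 5th to the 95th percentile of the 12372 genes tested (-0.46 to 0.47), every interval crosses 0, and all 10 points lie inside the band.

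The table also held 58 tested transcripts of the 10 genes, of any type, and 0 of them were called by edgeR, the lowest adjusted p being 0.0851 for the Sparc transcript Sparc-206. Isoforms of a gene had nearly the same counts wherever they shared exons, so a read was evidently counted on each transcript that it matched. This makes short transcripts a readout of position. A transcript that covers only the start of the main one counts the footprints there, and its reads were taken as a percentage of the main transcript's reads, here called its share. Where a partial transcript holds sequence that the main one lacks, its reads can include some from there, so that the share is then not strictly a part of the main transcript's reads. Of the 5′ partials, Fn1-207, Lamb1-203, Nid1-202 and Sparc-204 are annotated as retained introns, while Fn1-206, Fn1-208, Lamb1-206 and Sparc-206 are protein_coding. This comparison was chosen after the values of the members had been seen. It used transcripts of any type that shared at least 150 nt with the main transcript, ended within the first 85% of its coding sequence (5′ partial) or began beyond the first 15% (downstream partial), and had at least 10 reads on average.

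The genes Fn1, Lamb1, Nid1 and Sparc had a 5′ partial transcript, 8 in all, and in 8 of 8 the share was lower in both AHARIBO libraries than in all 3 standard libraries. Over all genes this held for 30.5% of 11730 such transcripts, and the reverse order for 5.75%, so the direction in these genes was that of the table as a whole. The log2 change of the share ran from -0.26 to -0.04, with a median of -0.21 in the 8 transcripts and -0.09 over all genes. The 8 are not independent, since transcripts of 1 gene count the same reads. With duplicates kept, 6 of 8 did not overlap, and both Lamb1 transcripts did. As levels, edgeR called 0 of the 8, and 3 had an unadjusted p under 0.05.

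Fn1-208 covers nt 15 to 1229 of the main Fn1 transcript, from the 5′ UTR to 13.9% of the coding sequence, and so includes both Fn1 windows shown above. Its share was 21.1%, 18.2% and 19.8% in standard and 16.9% and 17.5% in AHARIBO RIBO-seq, with 95% Wilson intervals of 19.8% to 22.6%, 17% to 19.5%, 18.3% to 21.4%, 15.9% to 18.0% and 16.4% to 18.8%. The groups did not overlap, although the intervals of standard replicates 2 and 3 reached into those of AHARIBO libraries. These intervals cover counting error only, and reads without molecular identifiers are not independent molecules.

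Sparc-206 covers nt 183 to 828, to 57.4% of the coding sequence, and held 59.7%, 67.9% and 64.4% of the Sparc reads in standard and 55.7% and 57.3% in AHARIBO RIBO-seq. The group means were 64.0% ± 4.11 (SD, n = 3) and 56.5% ± 1.13 (n = 2). Its log2 fold change as a level was -0.29 (SE 0.0998, adjusted p = 0.0851 by edgeR with Benjamini-Hochberg adjustment). The shorter Sparc-204, which ends at 6.27% of the coding sequence, held 20.4%, 22% and 20.5% in standard and 16.9% and 19.0% in AHARIBO RIBO-seq. For both Sparc transcripts the share was smaller in the AHARIBO libraries.

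Nid1-202 covers most of the coding sequence, to 78.2%, and had the smallest log2 change of share among the 8 (-0.04), with 82.9%, 83.1% and 80.6% of reads in standard and 79.8% and 79.7% in AHARIBO RIBO-seq. Lamb1-203, which ends at 6.49% of the coding sequence, held 9.47%, 8.43% and 7.81% in standard and 7.3% and 6.97% in AHARIBO RIBO-seq. Lamb1-203 rested on 21 to 40 reads per library, and the 95% intervals of its shares overlapped in all libraries. Downstream of the start, 21 transcripts of 8 genes could be read, 10 of them annotated as retained introns, and the AHARIBO share lay above the standard range in 3 (Fn1-202, Hspg2-202 and Lama5-202) and below it in 0. Over all genes 23.4% lay above and 6.93% below. With duplicates kept, 6 of 21 lay above and 0 below, and Hspg2-202 overlapped, beside 2835 above and 755 below of 11136 over all genes. Of the 21, 18 had a higher mean share in AHARIBO RIBO-seq, with a median log2 change of 0.09 beside 0.08 over all genes.

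**Figure D3:**
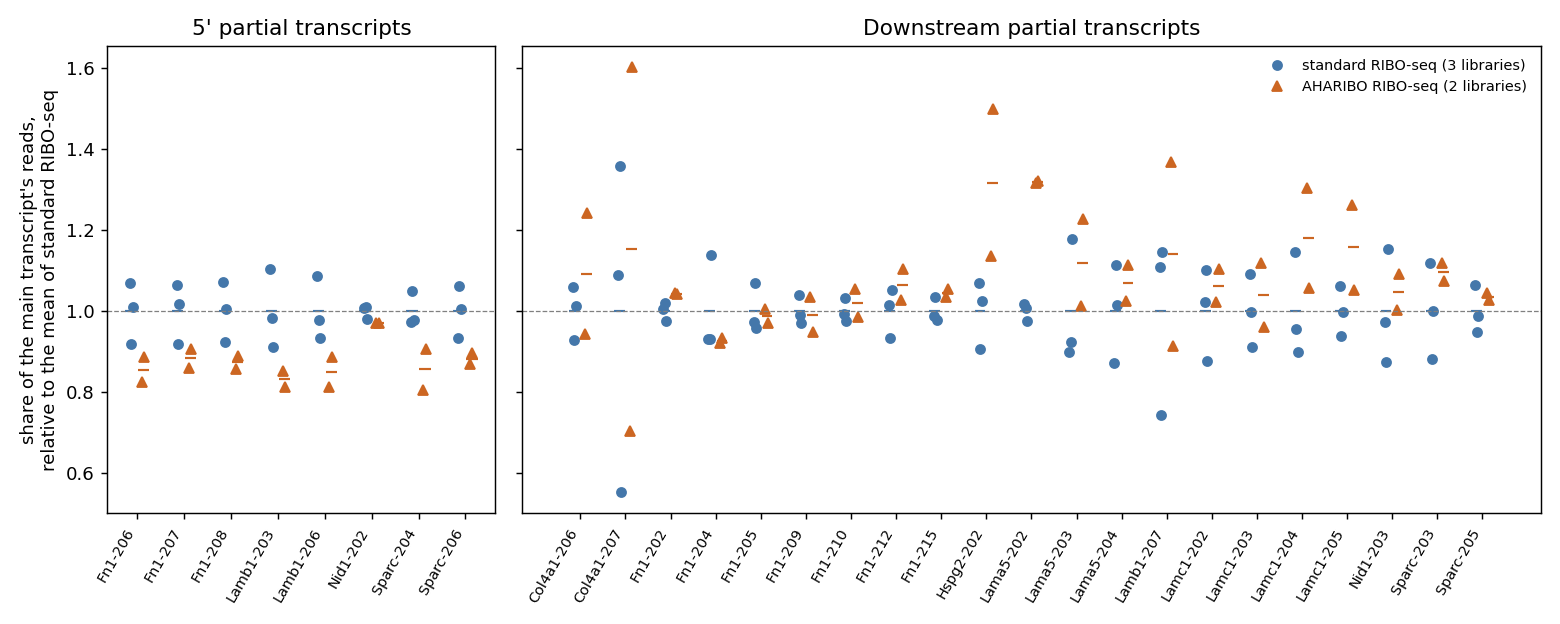
Reads on partial transcripts of the 10 genes as a share of those on the main transcript, divided by the mean share in standard RIBO-seq (dashed line at 1), for 8 transcripts at the 5′ end (left) and 21 downstream (right). Circles are standard and triangles AHARIBO RIBO-seq libraries, with short lines for group means. All AHARIBO points on the left lie below the standard points of the same transcript, and on the right 18 of 21 AHARIBO means lie above 1.

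Fn1 is spliced in 3 alternative segments, EDB, EDA and the variable region V. The deposited isoforms differ by these exons, so the reads counted on an isoform with a segment, less those on the same isoform without it, give a net count for the segment. Reads across the joint that skips a segment lower this count. The isoform pairs were chosen after the values had been seen. EDB (exon 25, 273 nt, chr1:71613763-71614035) had 55, 61 and 32 net reads in standard and 81 and 55 in AHARIBO RIBO-seq, a density of 0.422 ± 0.0477 (SD, n = 5) relative to the whole Fn1 coding sequence. EDA (exon 33, 270 nt, chr1:71603660-71603929) had 102, 162 and 87 net reads in standard and 165 and 148 in AHARIBO RIBO-seq, a relative density of 1.01 ± 0.121. The V segment, 360 nt of exon 40 (the exon spans chr1:71597281-71597747), stood at 0.772 ± 0.0594.

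EDB was the least dense segment in all 5 libraries, EDA had about the density of the whole message, and their ranges did not overlap. EDB and EDA overlapped between methods. V did not, with relative densities of 0.765, 0.707 and 0.724 in standard and 0.84 and 0.826 in AHARIBO RIBO-seq. Exon 40 begins at nt 6438 of the main transcript, within the stretch covered by Fn1-202 (nt 4648 to 8313), whose share of Fn1 reads was 32.1%, 32.6% and 31.2% in standard and 33.4% and 33.3% in AHARIBO RIBO-seq. The part of this shift in the V value was not tested, and no test was run on the segments. How often segments of other genes separate between methods was not worked out.

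**Figure D4:**
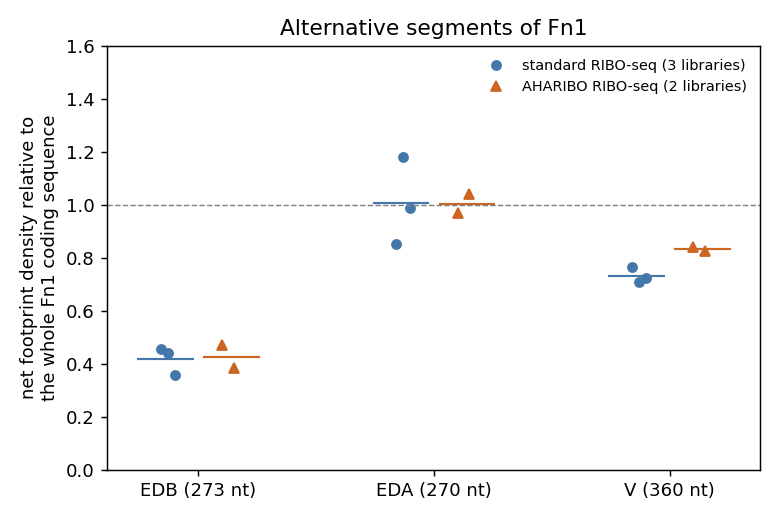
Net footprint density of the EDB, EDA and V segments of Fn1 relative to the whole Fn1 coding sequence (dashed line at 1), with circles for standard and triangles for AHARIBO RIBO-seq libraries and lines for group means. EDB lies between 0.359 and 0.47 in all libraries, EDA between 0.853 and 1.18, and V between 0.707 and 0.84.

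Of 30 other basement membrane genes, 14 passed the filter of 1 CPM in at least 1 library, and 16 were under 1 CPM in every library. Nid2, the second nidogen, led with 47.0 ± 2.67 CPM per kb (SD, n = 5), followed by Col18a1, the source of endostatin, with 32.5 ± 2.88 and Agrn, the proteoglycan agrin, with 10.4 ± 1.04. By edgeR, 0 of the 14 were called, which is near the 5.12% of all genes called, and 1 had an unadjusted p under 0.05. DESeq2 called 0, and gave most of the 14 no adjusted p, so that it could not call those. The median log2 fold change of the 14 was -0.09. Nearest to a call among these 3 was Col18a1, with 129, 145 and 132 CPM in standard and 118 and 118 CPM in AHARIBO RIBO-seq, a log2 fold change of -0.20 (SE 0.0784, adjusted p = 0.127 by edgeR). Among the further laminin chains, Lamb2 stood at 5.47 ± 0.506 and Lama3 at 0.275 ± 0.0686 CPM per kb.

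Matrix receptors carry the signal and the anchorage from the sheet to the cell, and 17 of 21 passed the filter. The most abundant were Bcam, a receptor for laminin alpha-5, with 55.3 ± 4.96 CPM per kb (SD, n = 5), Itga6, the alpha-6 integrin that binds laminin, with 28.7 ± 1.43, and Itgb1, the beta-1 integrin common to most matrix integrins, with 25.5 ± 2.75. By edgeR 0 of the 17 were called, which is near the 5.12% of all genes called, and 1 had an unadjusted p under 0.05. DESeq2 called 0, and gave most of the 17 no adjusted p, so that it could not call those. The median log2 fold change of the 17 was 0.01. Itgb1 gave 59.1, 60.2 and 53.5 CPM in standard and 71.7 and 61.1 CPM in AHARIBO RIBO-seq, with a log2 fold change of 0.20 (SE 0.0845, adjusted p = 0.169 by edgeR). Without AHARIBO RIBO-seq replicate 2 the log2 fold change was 0.31. That fit holds 1 AHARIBO library, so its spread comes from the standard libraries alone.

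The genes for collagen and laminin biosynthesis gave the only called gene among the matrix lists, Crtap. Of the 26 found in the table (of 27 listed), 22 passed the filter, 1 fell and 21 were not called, beside 5.12% of all genes called, with a median log2 fold change of -0.01. A share of 1 in 22 called is near that background, and 5 of the 22 had an unadjusted p under 0.05. The most abundant per kb were endoplasmic reticulum enzymes and chaperones, with P4hb, the beta subunit of prolyl 4-hydroxylase, at 74.7 ± 1.72 CPM per kb (SD, n = 5), Pdia3, a disulphide isomerase, at 71.4 ± 1.84, and Ppib, cyclophilin B, at 69.4 ± 1.31. Crtap, a subunit of a prolyl hydroxylase complex that acts on collagen, gave 48.0, 52.8 and 44.4 CPM in standard and 34.4 and 37.4 CPM in AHARIBO RIBO-seq. It fell by 0.44 on the log2 scale (SE 0.0893, adjusted p = 0.00154 by edgeR with Benjamini-Hochberg adjustment, 0.0294 by DESeq2). Without AHARIBO RIBO-seq replicate 1 the call was lost, at -0.38. For Plod2, a collagen lysyl hydroxylase, the log2 fold change was 0.32, and 0.42 without AHARIBO RIBO-seq replicate 2. Each of these reduced fits holds 1 AHARIBO library, so its spread comes from the standard libraries alone.

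Of 16 genes for matrix remodelling, 14 passed the filter, 0 were called by edgeR, beside 5.12% of all genes, and 1 had an unadjusted p under 0.05. DESeq2 called 0, and gave most of the 14 no adjusted p, so that it could not call those. The most abundant were the cathepsins Ctsl, with 66.1 ± 2.67 CPM per kb (SD, n = 5), and Ctsb, with 24.9 ± 2.62, and the protease inhibitor Timp1, with 17.3 ± 2.58. Their median log2 fold change was 0.06. Among the cell type markers, edgeR called 4 of 12 pluripotency genes, with Tfcp2l1 higher (0.28, adjusted p = 0.0257) and Utf1 (-0.34, adjusted p = 0.00484), Sox2 (-0.32, adjusted p = 0.013) and Klf4 (-0.34, adjusted p = 0.00836) lower in AHARIBO RIBO-seq, and 0 markers of the other cell types, beside 5.12% of all genes called. Of the markers of other cell types, 8 of 16 for endoderm and 8 of 16 for fibroblasts or feeder cells passed the filter. So did 3 of 8 for trophoblast and 4 of 8 for mesoderm and neural cells. DESeq2 called 2 of the 12 pluripotency genes, and gave adjusted p = 0.0938 for Tfcp2l1 and 0.051 for Sox2. The part of these markers in the values of the 10 genes was not tested.

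**Figure D5:**
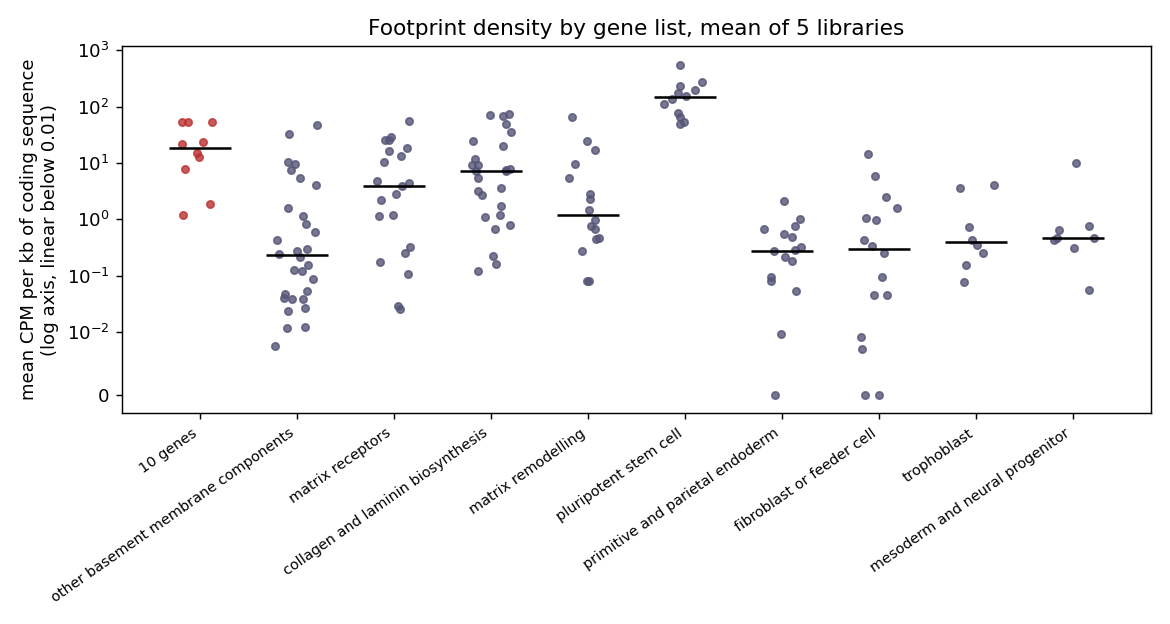
Mean footprint density over the 5 libraries for each gene of the lists, as CPM per kb of coding sequence on a log axis that is linear below 0.01, with a line at each list's median. The 10 genes lie between 1.18 and 53.2, while 16 of the 30 other basement membrane components and 8 of the 16 primitive and parietal endoderm markers are under 1 CPM in every library.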

How the data were processed

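For 5 mESC RIBO-seq libraries the authors deposited raw read counts on each transcript, once without duplicate reads (used here) and once with them, and the transcript length in nt. Per the labels and the study's methods, fragments of 25 to 35 nt were cut from a gel and sequenced for 50 bp, reads under 20 nt were discarded (Trimmomatic 0.36 per the submitters' processing notes), rRNA and tRNA reads were removed, the rest was aligned to Gencode M17 transcripts with STAR, and antisense and duplicate reads were then taken out. How reads matching several transcripts were counted is not given in the sources used here. Removing duplicates without molecular identifiers can also discard separate footprints with equal ends. It took 43.3% to 47.7% of all reads and 1.98% to 32.3% of those on the 10 transcripts.

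Symbols, types, coordinates and coding sequences came from Gencode M21 (GRCm38), which holds 134952 deposited transcripts (99.8%) by identifier. CPM used TMM factors over all transcripts, and those with at least 1 CPM in at least 1 library were tested with edgeR 4.0.16 (R 4.3.3) by quasi-likelihood without a replicate block. DESeq2 1.42.0 was the alternative. In simulated data with 200 of 66972 transcripts changed, edgeR recovered 98% of those changed 2-fold and called 18 unchanged ones, and DESeq2 recovered 85% and called 0. The changed transcripts were drawn only from those with a mean level well above the filter of 1 CPM. Each transcript was simulated on its own, without the reads that isoforms share, and changes under 2-fold were not simulated. SEs are approximate, being derived from each log2 fold change and its F statistic.

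The 10 genes, the lists and the markers were chosen with earlier results of these data known. The text names all 10 genes and, from each other list, every called gene and the 3 most abundant per kb. Lamb2, Lama3, Col4a3 to Col4a6 and Plod2 were named outside that rule, after their values were seen. Alternatives covered the tool, normalization, filter, threshold, transcript choice, duplicates, the replicate block and leaving out each library, and those for partial transcripts and matrix remodelling were added once the values were known. The number of unused sample columns was 0.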

Additional observations from a re-analysis of the deposited data

How the results depend on the processing

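No member passed the threshold under any of its 13 alternatives (130 in all, lowest adjusted p 0.186 by edgeR or DESeq2), and 10 of the 130 turned the sign, in 4 members near 0. With library size alone, Lama5 was at 0.01 (0.0093) and Nid1 at 0.02 (0.0163). Leaving out each library gave -0.0281 to 0.173 for Lama1, -0.0924 to 0.0496 for Lama5, -0.0620 to 0.0246 for Nid1 and -0.001023 to 0.0876 for Fn1. The sign turned without standard replicate 1 or AHARIBO replicate 1 for Lama1 (-0.01173, -0.0281) and Fn1 (-0.001023, -0.0008611), and without standard or AHARIBO replicate 2 for Lama5 (0.0496, 0.0185) and Nid1 (0.0038, 0.0246). Over all transcripts, 3021 calls became 308 with DESeq2, 716 with 1 transcript per gene, and 510 to 3829 without a library (1173 without standard replicate 1, 1815 without standard replicate 3, 510 without AHARIBO replicate 1). The replicate block gave 1792 calls and changed no call of a member or in the 4 matrix lists, and the marker lists were run under no alternative but DESeq2. Same-numbered libraries shared no deviation (r = -0.03717 between the 2 replicate differences), and although the study ran standard RIBO-seq on the input, no source says which libraries share a culture. Calls among receptors and biosynthesis genes changed only when an AHARIBO library was left out. Such a fit holds 1 AHARIBO library and takes its spread from the standard libraries alone. The Col4a1 to Col4a2 ratio was 2.09 with summed transcripts and 1.46 with duplicates kept. The Lamb1 to Lamc1 ratio, 0.151, was 0.296 with summed transcripts, 0.119 with duplicates kept and 0.226 per nt of whole transcript. The summed CPM of the 10 genes, 1417, was 4339 with summed transcripts and 983 with duplicates kept. Summed transcripts count a shared read again, which raises genes with many isoforms. Depth limited the collagen chains most, with 43 to 99 reads per library.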
